A study of Mus musculus with 4 samples.

Results

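Neighbouring protein-coding genes of the mouse often end or begin within 1 kb of each other, and the deposited ChIP-exo peaks were read at all such places on the 19 autosomes. A member is a gap or overlap of at most 1 kb between facing ends of different coding genes, neither nested in the other, taken from the RefSeq annotation of GRCm38.p6 (mm10) and extended by 500 bp on each side. There were 2938 such intervals. They hold 5843 of 41330 autosomal coding gene ends and 5078 of 20665 genes. Strand was listed for 16457 genes, which placed 877 intervals as divergent (the 5′ starts of the genes face each other), 492 as tandem (a 3′ end faces the next start) and 707 as convergent (the 3′ ends face). The strand was unknown for 862 intervals, among them all 39 on chromosome 18. The comparison set was 35152 unpaired ends, with no end of another coding gene within 1 kb, of which 13860 were starts and 14089 were 3′ ends. Another 335 ends lay within 1 kb of a coding gene end but in no interval and were left out of both sets.

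The libraries came from Bruce-4, a line of mouse embryonic stem cells of the C57BL/6J strain, cultured in serum/2i/LIF medium. Each sample of 10000000 cells was fixed with 1% formaldehyde for 10 min, with no treatment and no genetic change named. Antibodies were against H3K4me3 (1 library), CTCF (2 libraries) and RAD21 (1 library), and ChIP-exo, in which an exonuclease trims the precipitated DNA, gave 1 peak list per antibody. For CTCF that is a list named as a union and deposited with the second library, and which libraries it joins is not given in the sources used here.

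H3K4 trimethylation is laid down at active and poised promoters, mostly at CpG-rich sequence. CTCF is a zinc finger protein that binds a long DNA motif and can stop cohesin as it moves along DNA, and RAD21 is the cleavable subunit of cohesin. A divergent pair of genes can share a bidirectional promoter, an arrangement common among housekeeping genes, while a tandem pair places the end of one transcription unit in front of the promoter of the next.

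The 9 promoters printed here show how the marks lie over promoters of paired genes. Each runs from 250 bases before to 50 after the RefSeq start (GRCm38.p6), 5′ to 3′ on the gene's own strand, and capitals mark the letters of 7 short motifs (TATA box, NF-Y box, GC box, NRF1, ETS, YY1 and CTCF core), searched for on either strand. The leading 5 belong to the named pairs with all 3 marks and the longest RAD21 peaks, Sars2 and Trp53 to well-known divergent pairs with all 3 marks, Tbck to the pair with the longest RAD21 peak without CTCF, and Anapc11 to a pair without any peak. The last 2 were picked after their values were seen.
Nudt5 (paired with Cdc123, chr2:5844784-5845083, plus strand): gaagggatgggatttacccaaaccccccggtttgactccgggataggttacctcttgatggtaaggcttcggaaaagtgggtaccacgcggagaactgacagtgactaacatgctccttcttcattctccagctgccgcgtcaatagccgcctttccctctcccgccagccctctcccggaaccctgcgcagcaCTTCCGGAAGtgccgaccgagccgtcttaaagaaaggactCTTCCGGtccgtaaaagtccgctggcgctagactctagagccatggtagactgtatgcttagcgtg
Ppfia3 (paired with Lin7b, chr7:45366970-45367269, minus strand): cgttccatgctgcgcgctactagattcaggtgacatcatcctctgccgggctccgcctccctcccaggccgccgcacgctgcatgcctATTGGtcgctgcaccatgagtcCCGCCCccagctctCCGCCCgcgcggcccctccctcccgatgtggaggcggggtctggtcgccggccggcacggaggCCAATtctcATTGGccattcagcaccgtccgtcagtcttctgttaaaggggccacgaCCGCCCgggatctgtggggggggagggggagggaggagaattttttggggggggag
Ccdc122 (paired with Lacc1, chr14:77036522-77036821, plus strand): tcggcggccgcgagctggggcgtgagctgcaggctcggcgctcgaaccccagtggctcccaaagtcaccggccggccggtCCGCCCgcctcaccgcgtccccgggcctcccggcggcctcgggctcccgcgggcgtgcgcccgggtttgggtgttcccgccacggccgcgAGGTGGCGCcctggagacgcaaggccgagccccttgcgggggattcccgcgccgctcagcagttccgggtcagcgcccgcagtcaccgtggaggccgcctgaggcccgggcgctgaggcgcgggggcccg
Ttc19 (paired with Zswim7, chr11:62281223-62281522, plus strand): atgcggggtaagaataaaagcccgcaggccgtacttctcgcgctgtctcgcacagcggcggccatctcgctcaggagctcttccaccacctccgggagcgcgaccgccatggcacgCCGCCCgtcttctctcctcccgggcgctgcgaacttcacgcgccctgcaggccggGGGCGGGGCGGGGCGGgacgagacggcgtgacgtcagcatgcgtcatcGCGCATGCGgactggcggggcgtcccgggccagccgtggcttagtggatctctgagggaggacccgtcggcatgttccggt
Ints7 (paired with Dtl, chr1:191575386-191575685, plus strand): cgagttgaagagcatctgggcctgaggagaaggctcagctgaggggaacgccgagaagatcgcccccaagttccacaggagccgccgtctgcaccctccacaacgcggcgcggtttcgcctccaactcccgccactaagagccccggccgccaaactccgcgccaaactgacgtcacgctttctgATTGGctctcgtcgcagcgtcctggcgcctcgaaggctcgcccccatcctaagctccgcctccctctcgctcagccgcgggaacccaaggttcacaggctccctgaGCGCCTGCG
Sars2 (paired with Mrps12, chr7:28741718-28742017, plus strand): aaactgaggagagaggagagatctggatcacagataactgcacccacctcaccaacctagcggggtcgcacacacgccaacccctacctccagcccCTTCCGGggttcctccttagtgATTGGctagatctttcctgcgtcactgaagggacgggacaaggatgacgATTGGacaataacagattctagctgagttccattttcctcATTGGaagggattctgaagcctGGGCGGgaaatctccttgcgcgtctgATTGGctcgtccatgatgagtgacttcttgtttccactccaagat
Trp53 (paired with Wrap53, chr11:69580109-69580408, plus strand): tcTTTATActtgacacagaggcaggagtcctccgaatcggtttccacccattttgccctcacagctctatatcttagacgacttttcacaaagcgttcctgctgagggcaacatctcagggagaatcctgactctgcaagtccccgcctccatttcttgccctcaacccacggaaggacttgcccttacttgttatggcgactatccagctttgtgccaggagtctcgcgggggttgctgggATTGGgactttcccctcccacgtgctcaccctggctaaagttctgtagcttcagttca
Tbck (paired with Aimp1, chr3:132683894-132684193, plus strand): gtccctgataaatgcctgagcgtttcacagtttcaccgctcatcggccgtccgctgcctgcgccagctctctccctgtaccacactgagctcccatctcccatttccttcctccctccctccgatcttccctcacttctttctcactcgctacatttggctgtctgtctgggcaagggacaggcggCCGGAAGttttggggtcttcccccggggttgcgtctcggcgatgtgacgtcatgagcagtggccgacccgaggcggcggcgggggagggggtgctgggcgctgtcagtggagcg
Anapc11 (paired with Alyref, chr11:120598171-120598470, plus strand): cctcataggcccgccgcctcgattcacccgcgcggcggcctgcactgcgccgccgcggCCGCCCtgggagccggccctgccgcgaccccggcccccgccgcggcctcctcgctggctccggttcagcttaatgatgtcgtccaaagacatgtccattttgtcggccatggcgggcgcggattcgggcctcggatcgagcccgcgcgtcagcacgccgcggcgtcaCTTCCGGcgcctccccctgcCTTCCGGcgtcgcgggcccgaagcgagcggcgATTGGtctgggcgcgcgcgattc
In the Ccdc122 promoter the CTCF peak covers bases 117 to 239 and the CTCF core letters lie inside it, while the RAD21 and H3K4me3 peaks cover all 300 bases. In the Trp53 promoter the peaks lie apart: the CTCF peak reaches bases 1 to 36, the RAD21 peak bases 69 to 172, and the H3K4me3 peak only bases 289 to 300. In the Sars2 promoter the CTCF peak covers bases 66 to 103 and the RAD21 peak bases 15 to 99, under an H3K4me3 peak over the whole window. The Tbck promoter lies wholly under a RAD21 and an H3K4me3 peak, with no CTCF peak called. The Anapc11 promoter holds GC box and ETS letters and lies under no peak. Marks of a pair were read in its extended interval, so a printed promoter can lack some of them. The Ttc19 promoter meets no CTCF peak, and the Ints7 promoter meets neither a CTCF nor a RAD21 peak. Ppfia3 belongs to a tandem pair with a gap of 871 bp. Its promoter is reached at bases 1 to 31 by H3K4me3, 1 to 20 by CTCF and 1 to 21 by RAD21.

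Because each antibody has 1 list, there are no replicates and no p-values here. Intervals in brackets are 95% intervals (Wilson for a share, Newcombe for a difference) and cover counting error only, and each difference was also taken on every autosome with at least 5 windows in both sets. Depth is unknown, and a window without a peak shows only that none was called. To compare like with like, windows of 1000 bp were used: 500 bp either side of the midpoint of a paired interval, against 500 bp either side of an unpaired end. A paired window holds 2 annotated ends and an unpaired window 1. Over all 41330 autosomal coding gene ends, 28.4% had an H3K4me3 peak within 500 bp, 10.3% a CTCF peak and 16.4% a RAD21 peak. Of the markers looked up, 11 of 12 embryonic stem cell genes had H3K4me3 at an end (Esrrb only inside the gene), as did 2 of 8 fibroblast genes and 1 of 6 genes of differentiated tissue. Counting peaks at an end or inside the gene, these were 12 of 12, 4 of 8 and 2 of 6.

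All 3 lists were denser at paired than at unpaired ends. H3K4me3 marked 1435 of 2938 paired windows (48.8%), against 25.2% of unpaired ends, a difference of 23.6 percentage points (21.8 to 25.5). CTCF peaks were present in 467 paired windows (15.9%), against 9.42% of unpaired ends, a difference of 6.48 points (5.16 to 7.88). RAD21 peaks were present in 743 (25.3%), against 14.9%, a difference of 10.4 points (8.82 to 12.04). The excess at pairs was seen on 19 of 19 autosomes for H3K4me3 (mean 24.1 ± 3.97 points, SD over chromosomes) and RAD21 (10.7 ± 2.96), and on 18 of 19 for CTCF (6.12 ± 3.22). In the wider windows of the rule itself, 1480 of the 2938 intervals (50.4%) held H3K4me3, 536 (18.2%) CTCF and 826 (28.1%) RAD21, 297 held all 3 and 1291 (43.9%) held none.

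The intervals differed strongly by the relative strand of the 2 genes, which also sets whether starts or 3′ ends face. Unpaired starts and unpaired 3′ ends already differed without any pairing, at 48.8% and 1.62% for H3K4me3. Divergent pairs were the most densely marked, tandem pairs were close to unpaired starts in H3K4me3, and convergent pairs were nearly bare.

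**Figure D1:**
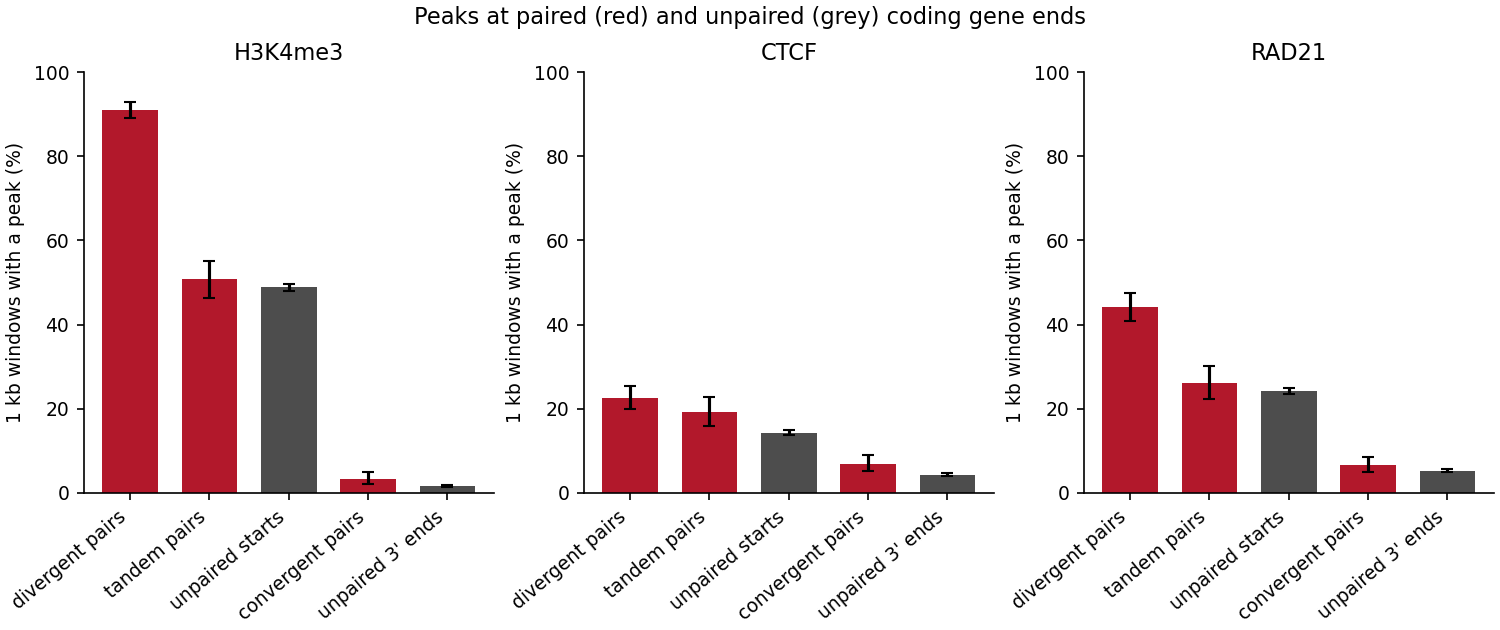
Share of 1 kb windows with a peak of each list, in percent, for divergent, tandem and convergent pairs (red) and for unpaired starts and unpaired 3′ ends (grey), with Wilson 95% intervals as whiskers. Divergent pairs reach 91.1% for H3K4me3, against 48.8% of unpaired starts, and convergent pairs stay at 3.25%, against 1.62% of unpaired 3′ ends.

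At divergent pairs, where the starts face each other, 799 of 877 windows (91.1%) held an H3K4me3 peak, against 48.8% of unpaired starts. Among all 16457 starts with a listed strand the share was 53.8% for H3K4me3, 15.4% for CTCF and 26.5% for RAD21. The H3K4me3 difference from unpaired starts was 42.3 points (40.1 to 44.2) and was above 0 on 18 of 18 chromosomes (mean 40.8 ± 8.18). RAD21 lay in 387 divergent windows (44.1%), against 24.2% of unpaired starts, 19.9 points more (16.6 to 23.3) and above 0 on 18 of 18 chromosomes. CTCF lay in 198 (22.6%), against 14.3%, 8.31 points more (5.60 to 11.2) and above 0 on 17 of 18. Divergent pairs thus differed from unpaired starts in all 3 lists by more than counting error, and in each by a margin seen on nearly every chromosome.

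The combinations show what a divergent pair typically carries. In the rule's windows 335 of 877 (38.2%) held H3K4me3 alone, 254 (29.0%) H3K4me3 with RAD21 and no CTCF, 148 (16.9%) all 3, and 65 (7.41%) H3K4me3 with CTCF and no RAD21. Only 9 held CTCF or RAD21 without H3K4me3, and 66 (7.53%) held no peak. In the windows of equal width, H3K4me3 with RAD21 and no CTCF was present at 245 of 877 divergent pairs (27.9%), against 1565 of 13860 unpaired starts (11.3%), and all 3 marks at 134 (15.3%), against 1274 (9.19%). At both, RAD21 beside H3K4me3 was thus more often without CTCF than with it.

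The H3K4me3 peaks of divergent pairs were longer. The longest peak per window had a median of 1152 bp (quartiles 845.5 and 1401) at divergent pairs, against 901 bp (676 and 1162) at unpaired starts, and the difference of 251 bp had the same sign on 18 of 18 chromosomes (mean 259 ± 71.0 bp). More than 1 H3K4me3 peak was present in 186 of 799 marked divergent windows (23.3%), against 643 of 6767 marked unpaired starts (9.50%). The lengths of CTCF and RAD21 peaks did not separate the sets: medians were 115.5 bp at divergent pairs and 127 bp at unpaired starts for CTCF, and 169 and 164 bp for RAD21, with 6 and 7 of 17 chromosomes above 0.

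Most often 1 H3K4me3 peak bridged the pair. In 471 of the 799 marked divergent windows (58.9%) a single peak covered both annotated starts. In 160 a peak covered 1 start only, in 162 (20.3%) it covered neither start, and in 6 each start had a separate peak. The layout differed between gaps without a steady trend: with starts less than 100 bp apart, 190 of 266 marked windows (71.4%) had 1 peak over both, and with starts at least 400 bp apart only 3 of 37 did, while 24 of those 37 (64.9%) had a peak over 1 start. At intermediate gaps of 100 to under 200 bp, 47 of 111 marked windows (42.3%) had H3K4me3 over neither start and 42 (37.8%) had 1 peak over both. At gaps of 200 to under 400 bp, 55 of 101 (54.5%) had 1 peak over both and 16 (15.8%) had it over neither.

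**Figure D2:**
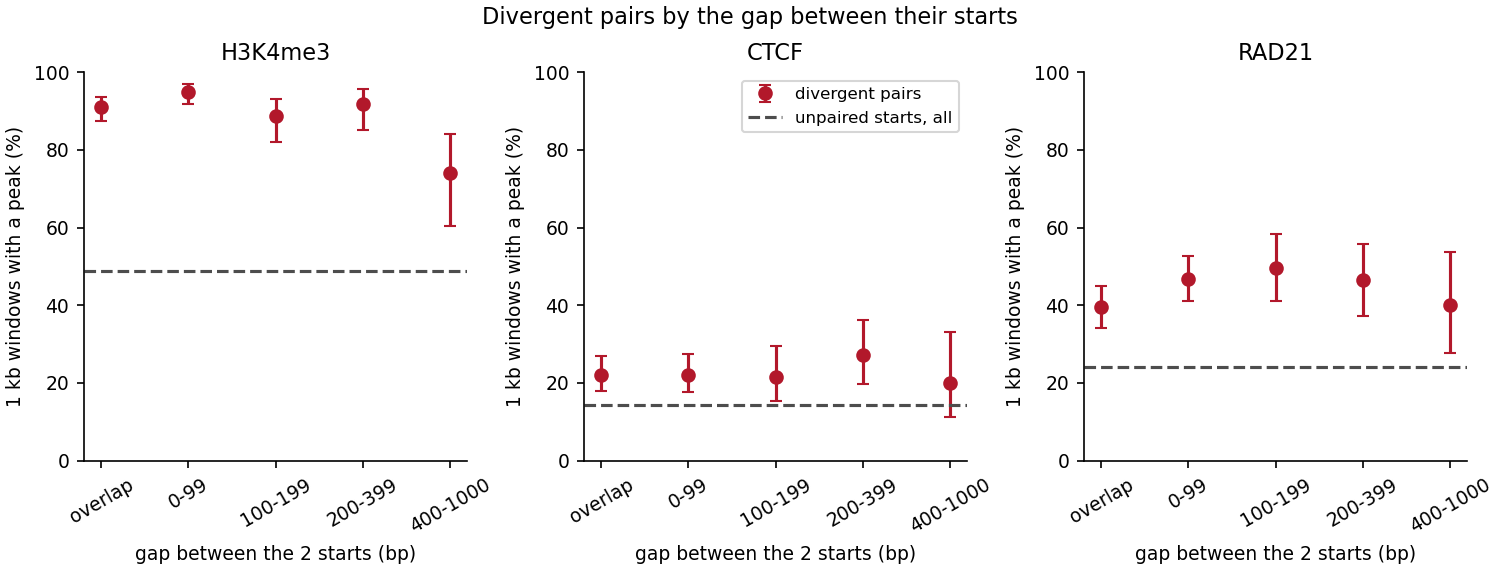
Share of 1 kb windows with a peak, in percent, at divergent pairs grouped by the distance between their starts in bp (points, with Wilson 95% intervals), and over all unpaired starts (dashed line). H3K4me3 falls to 74.0% in the widest gaps, against 266 of 280 windows at gaps under 100 bp. For CTCF and RAD21 the intervals of these groups overlap. The overlap group pools overlaps of every length up to 1 kb.

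The median distance between divergent starts was 41 bp (quartiles -116 and 142, a negative value being an overlap), and 35.6% overlapped. H3K4me3 marked 91.0% of overlapping divergent pairs, 266 of 280 of those with a gap under 100 bp and 37 of 50 (74.0%) of those with a gap of 400 bp or more. RAD21 shares over the same groups lay between 39.4% and 49.6%, and CTCF shares reached at most 27.3%, with overlapping intervals. The widest gaps therefore stood lower in H3K4me3, and no difference by gap was detectable in CTCF or RAD21.

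Divergent pairs also differed in where the peaks sat. Midpoints of H3K4me3 peaks within 500 bp lay a median of 214 bp from the middle of the gap, against 297 bp from an unpaired start, where they were mostly downstream (median 263 bp into the gene). RAD21 midpoints lay a median of 156 bp from the middle of a divergent gap, against 144 bp from an unpaired start. The CTCF medians were 183 bp in divergent pairs and 155.5 bp at unpaired starts.

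**Figure D3:**
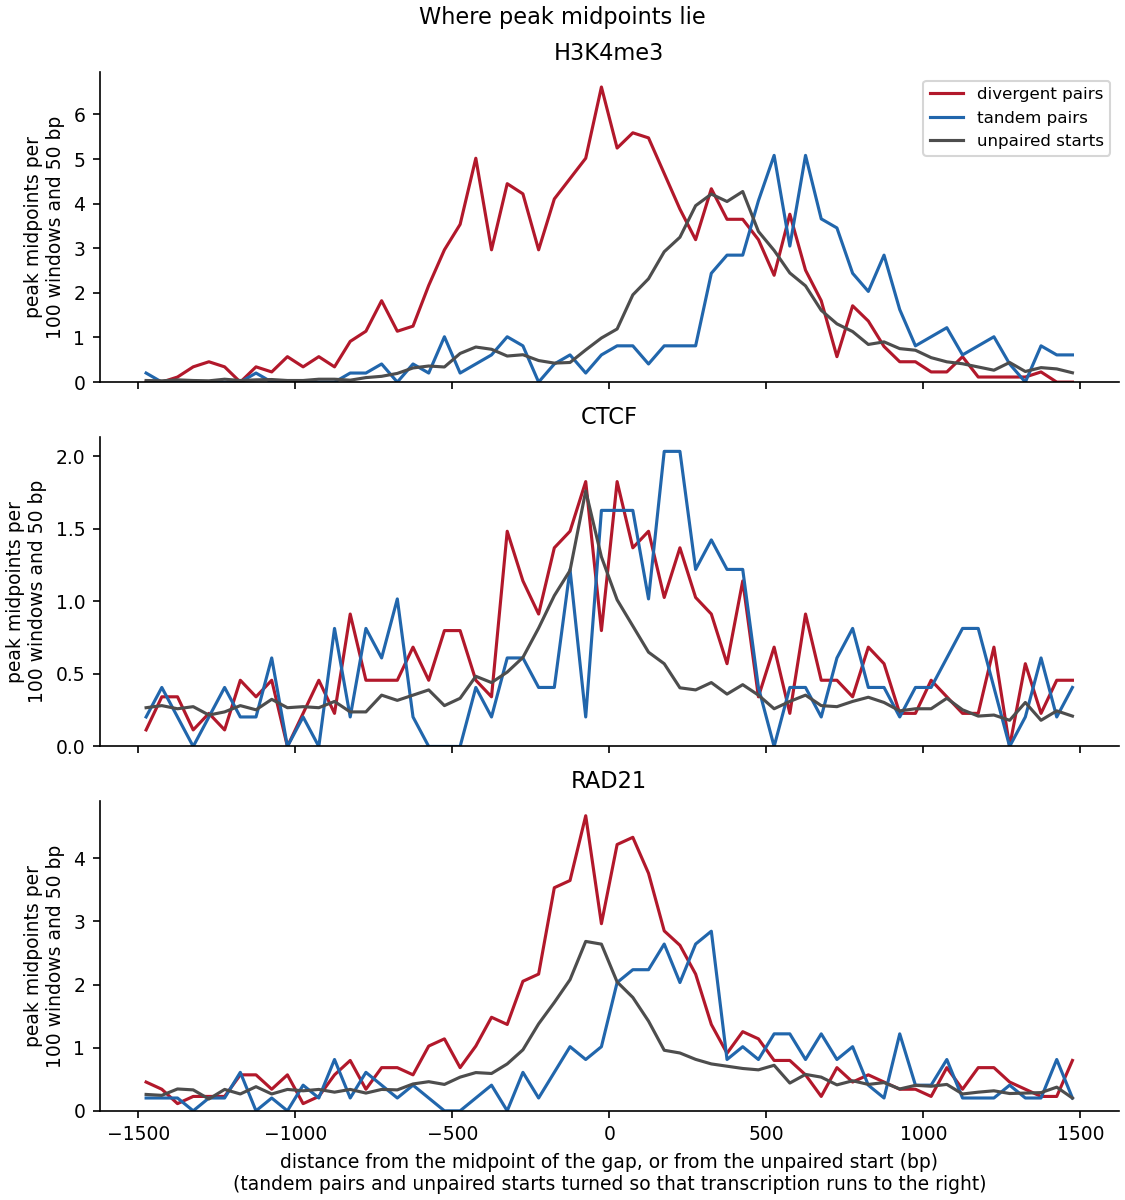
Number of peak midpoints per 100 windows in bins of 50 bp, by distance in bp from the middle of the gap (divergent and tandem pairs) or from the start (unpaired starts), with one panel per list. At divergent pairs H3K4me3 midpoints are spread broadly to both sides of the middle of the gap, at most 6.61 per 100 windows. At unpaired starts they are at most 4.27 per 100 windows and lie 400 to 450 bp into the gene. Tandem midpoints lie to the downstream side, but they are measured from the middle of the gap and not from the downstream start. Their distances are therefore not distances into the gene.

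Because H3K4me3 was so much more frequent at divergent pairs, CTCF and RAD21 were also compared among H3K4me3-marked windows alone. CTCF was then equally frequent, in 195 of 799 divergent windows (24.4%) and in 1652 of 6767 unpaired starts (24.4%), and the interval of the difference ran from -3.04 to 3.25 points. RAD21 remained more frequent, in 379 of 799 (47.4%), against 42.0% of marked unpaired starts, 5.48 points more (1.84 to 9.14), above 0 on 15 of 18 chromosomes. With only peaks above the median length it was 3.17 points more, and the interval (-0.197 to 6.75) included 0. The difference between the CTCF and the RAD21 result was not tested, and their intervals overlap.

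The RAD21 excess was seen at divergent pairs without a CTCF peak. Among marked windows without CTCF, RAD21 was present in 245 of 604 divergent pairs (40.6%), against 1565 of 5115 unpaired starts (30.6%), 9.97 points more (5.92 to 14.1), above 0 on 14 of 18 chromosomes (mean 8.82 ± 10.0). Among marked windows with CTCF the order was turned: RAD21 was present in 134 of 195 divergent pairs (68.7%), against 1274 of 1652 unpaired starts (77.1%), 8.40 points fewer (interval -15.5 to -1.96), and above 0 on only 3 of 17 chromosomes, although the interval reached 0 in 5 of 10 other settings. At the level of single peaks, 115 of 439 RAD21 peaks in marked divergent windows (26.2%) overlapped a CTCF peak, against 1208 of 3119 in marked unpaired starts (38.7%). The contrast between windows with and without CTCF was not itself tested, and in the windows without CTCF the spread over chromosomes was larger than the mean.

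**Figure D4:**
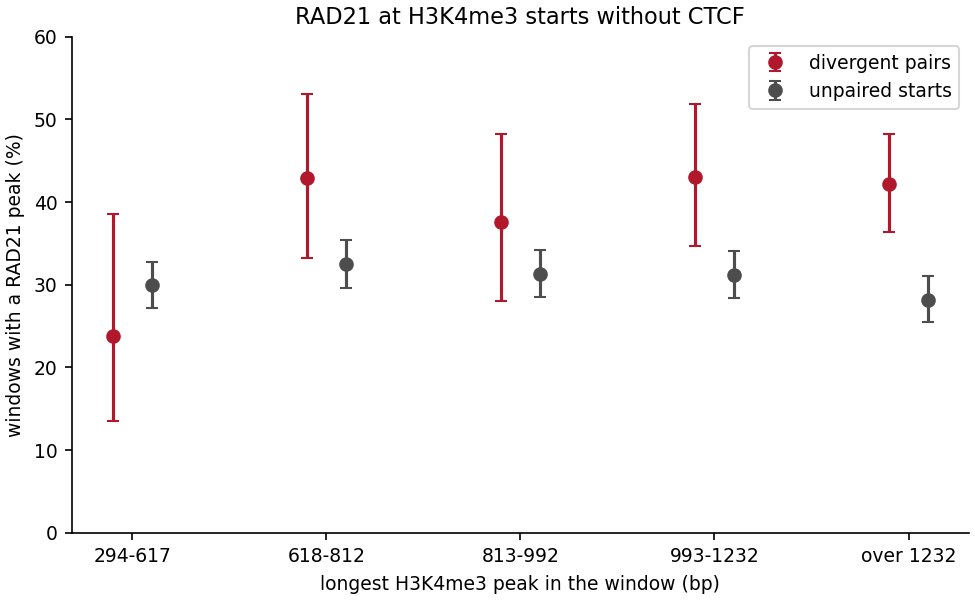
Share of H3K4me3-marked windows without CTCF that held a RAD21 peak, in percent, by the length in bp of the longest H3K4me3 peak in the window, for divergent pairs (red) and unpaired starts (grey), with Wilson 95% intervals. In all but the shortest group the divergent share is higher, for example 42.2% against 28.2% in the longest group.

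Since H3K4me3 peaks were longer at divergent pairs, RAD21 was also read at matched H3K4me3 length. Within 5 groups by H3K4me3 length, RAD21 without CTCF was present, from the shortest to the longest peaks, in 23.8%, 42.9%, 37.6%, 43.1% and 42.2% of divergent pairs, and in 29.9%, 32.5%, 31.3%, 31.2% and 28.2% of unpaired starts. The divergent share was lower only in the shortest group, which holds 42 divergent pairs. A second comparison used 922 unpaired coding starts with a lncRNA gene starting within 1 kb on the opposite strand. These windows are centred on the coding start, so the lncRNA start can lie outside them. Against these, H3K4me3 at divergent coding pairs was 11.3 points higher (91.1% and 79.8%), CTCF 0.668 points higher (interval -3.17 to 4.52) and RAD21 8.66 points higher (44.1% and 35.5%, interval 4.14 to 13.1). For RAD21 in marked windows without CTCF the difference was 9.74 points (4.19 to 15.2), above 0 on 12 of 18 chromosomes. Against these starts the interval thus included 0 for CTCF and lay above 0 for RAD21.

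At tandem pairs, where a 3′ end lies in front of the next start, H3K4me3 was about as frequent as at unpaired starts, in 250 of 492 windows (50.8%), against 48.8%, a difference of 1.99 points (-2.50 to 6.46). With peaks resized to 200 bp the difference was -12.2 points (-16.2 to -8.01), so its direction depends on this setting. Those windows were still centred on the gap and not on the downstream start. Centred on that start with peaks at full length, the H3K4me3 difference was 3.21 points (-1.28 to 7.67). Resized peaks were not counted about that start. The median gap of tandem pairs was 387.5 bp and 10.4% overlapped. RAD21 was present in 128 (26.0%), against 24.2% of unpaired starts, a difference of 1.83 points (-1.92 to 5.94), above 0 on 9 of 18 chromosomes. With 1000 bp either side the RAD21 difference was 4.3 points (0.173 to 8.66). CTCF was more frequent, in 94 (19.1%), against 14.3%, by 4.83 points (1.55 to 8.59), although on only 10 of 18 chromosomes. Centred on the downstream start instead of on the gap, a setting chosen after seeing the data, CTCF lay at 101 of 492 (20.5%), 6.26 points more than at unpaired starts (2.87 to 10.1), on 12 of 18 chromosomes.

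The CTCF excess at tandem pairs was clearest where no H3K4me3 peak was called. Among tandem windows about the downstream start without H3K4me3, CTCF was present in 30 of 236 (12.7%), against 4.60% of unmarked unpaired starts, 8.12 points more (4.42 to 13.0), on 11 of 16 chromosomes. Among those with H3K4me3, CTCF was present in 71 of 256 (27.7%), against 24.4%, with an interval from -1.91 to 9.19 points. RAD21 was also more frequent in the windows without H3K4me3, in 30 of 236 (12.7%), against 7.23% of unmarked unpaired starts, 5.48 points more (1.77 to 10.4). Among those with H3K4me3 the RAD21 interval ran from -6.15 to 6.07 points. Whether the differences with and without H3K4me3 differ from each other was not tested. CTCF peaks at tandem pairs were also longer, with a median of 162.5 bp, against 127 bp at unpaired starts, on 7 of the 8 chromosomes with enough peaks.

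Around the 3′ end of the upstream gene, tandem pairs were more often marked than unpaired 3′ ends. Of 492 windows about that 3′ end, 177 (36.0%) held H3K4me3, against 1.62% of unpaired 3′ ends, 86 (17.5%) held CTCF, against 4.26%, and 99 (20.1%) held RAD21, against 5.17%. The next gene's start lies within 1 kb of each of these 3′ ends, so the 2 ends of a tandem pair cannot be told apart in this comparison. In the rule's windows 187 tandem intervals (38.01%) had no peak, 131 (26.6%) had H3K4me3 alone, 65 (13.2%) had all 3, and 27 (5.49%) had CTCF with RAD21 and no H3K4me3.

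At convergent pairs, where the 3′ ends face, few peaks were called. Over all 16457 3′ ends with a listed strand the shares were 3.2% for H3K4me3, 5.06% for CTCF and 5.98% for RAD21. CTCF was present in 49 of 707 convergent windows (6.93%), against 4.26% of unpaired 3′ ends, 2.67 points more (0.987 to 4.81), above 0 on 11 of 18 chromosomes. With a gap limit of 500 bp this fell to 1.06 points, with an interval (-0.713 to 3.52) that included 0. RAD21 was present in 46 (6.51%), against 5.17%, with an interval from -0.305 to 3.43 points that includes 0. The RAD21 interval lay above 0 with 1000 bp either side (3.08 points, 0.779 to 5.77) and with peaks above the median length (1.3 points, 0.0346 to 3.04). H3K4me3 was present in 23 (3.25%), against 1.62%, 1.63 points more (0.536 to 3.23), above 0 on 9 of 18 chromosomes. With peaks resized to 200 bp it was 0.301 points more, with an interval (-0.326 to 1.44) that included 0. These differences are small beside those of divergent pairs, and a convergent window holds 2 facing 3′ ends where an unpaired window holds 1. In the rule's windows 614 of 707 convergent intervals (86.8%) held no peak, and the most frequent other state was CTCF with RAD21 and no H3K4me3, in 41 (5.80%).

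The 862 pairs of unknown strand lay between the classes, at 42.1% for H3K4me3, 14.6% for CTCF and 21.1% for RAD21. Against all unpaired ends they were higher by 16.9, 5.20 and 6.22 points. They were not assigned to a class.

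Gene families were read by symbol to see which functions the pairs hold. Keratins were read as Krt symbols and cytosolic ribosomal proteins as Rpl or Rps symbols. Related genes that share those letters may therefore be counted with them. Of all autosomal coding genes 24.6% were in a paired interval and 8.44% in a divergent one. Paired genes made up 25 of 38 exosome and RNA polymerase subunits (65.8%), 43 of 67 replication-dependent histone genes (64.2%), 29 of 47 subunits and assembly factors of complex I (61.7%), 43 of 78 mitochondrial ribosomal protein genes (55.1%), 22 of 44 DNA repair genes, 17 of 35 aminoacyl tRNA synthetases (48.6%), 13 of 28 mediator subunits (46.4%), 21 of 50 proteasome genes (42.0%) and 32 of 95 cytosolic ribosomal protein genes (33.7%). They made up 54 of 388 Zfp genes (13.9%), 7 of 112 keratins (6.25%) and 9 of 1104 olfactory receptors (0.815%). Families of the cell's basic machinery thus had larger paired shares than all genes, and the 2 large tissue-restricted families and the zinc finger genes smaller ones. The families sit partly in clusters, so their members are not independent.

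Within divergent pairs the families mostly followed the class. Over all 877 divergent windows the shares were 91.1% for H3K4me3, 22.6% for CTCF and 44.1% for RAD21. H3K4me3 lay at 26 of 26 divergent intervals of mitochondrial ribosomal protein genes, 16 of 16 of complex I, 14 of 14 of exosome and polymerase subunits, 11 of 11 of DNA repair genes, 7 of 7 of synthetases and 17 of 17 of Zfp genes. For mediator it was 5 of 5, for cytosolic ribosomal proteins 10 of 11 and for the proteasome 7 of 8. The only divergent interval of keratins held H3K4me3, and the only one of olfactory receptors did not. RAD21 lay at 15 of the 26 mitochondrial ribosomal intervals, 9 of the 16 of complex I and 3 of the 11 of DNA repair. It lay at 7 of 14 of exosome and polymerase subunits, 8 of 17 of Zfp genes and 3 of 7 of synthetases. For the proteasome it was 3 of 8, for mediator 3 of 5 and for cytosolic ribosomal proteins 3 of 11. The histone genes, which are transcribed in S phase from clusters of short intronless units, stood apart: of their 10 divergent intervals 3 held H3K4me3, 1 held RAD21 and none held CTCF.

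Of 20 pairs known as neighbours from textbooks, 18 met the rule. Donson and Son overlap too far in this annotation (a gap of -12337 bp), as do Thra and Nr1d1 (-1075 bp, just past the limit). All 18 had H3K4me3 in the rule's window, and 5 of them had all 3 marks, among them Wrap53 and Trp53, Mrps12 and Sars2, and Hscb and Chek2. Another 4 had RAD21 without CTCF. Most of the 18 were divergent. Over all divergent intervals the rule's windows held H3K4me3 in 91.4%, all 3 marks in 16.9%, and H3K4me3 with RAD21 and no CTCF in 29.0%.

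Brca1, of homologous recombination, and Nbr1, an autophagy receptor, start 151 bp apart at chr11:101551955-101552107. The interval held 2 H3K4me3 peaks, the longer of 613 bp, and no CTCF or RAD21 peak was called there. Wrap53, a telomerase and Cajal body protein, and Trp53, the tumour suppressor p53, start 97 bp apart. There the H3K4me3 peak measured 1388 bp, the RAD21 peak 104 bp and the CTCF peak 67 bp, in the order along Trp53 described above.

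Among pairs with RAD21 and no CTCF, Hspd1 and Hspe1, the mitochondrial chaperonin and its co-chaperonin, overlapped (a gap of -96 bp), with a RAD21 peak of 134 bp between 2 H3K4me3 peaks. Surf1, an assembly factor of cytochrome c oxidase, and Surf2 had an H3K4me3 peak of 943 bp with a RAD21 peak of 259 bp inside it. Atm, the DNA damage kinase, and Npat, a coactivator of histone genes, start 60 bp apart and held a RAD21 peak of 226 bp over the gap. Sirt3, a mitochondrial deacetylase, and Psmd13, a proteasome subunit, held 2 RAD21 peaks under an H3K4me3 peak of 1386 bp. In these 4 pairs RAD21 was thus called at the shared promoter with no CTCF peak in the window.

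Among pairs with all 3 marks, Mrps12 and Sars2, a mitochondrial ribosomal protein and the mitochondrial seryl-tRNA synthetase, start 135 bp apart and held 2 CTCF and 2 RAD21 peaks that overlap 1 H3K4me3 peak of 1153 bp. Hscb, of iron-sulfur cluster assembly, and Chek2, a checkpoint kinase, held 2 H3K4me3 peaks, the longer of 724 bp, a CTCF peak of 292 bp and a RAD21 peak of 381 bp. Col4a1 and Col4a2, which encode the chains of basement membrane collagen, had H3K4me3 alone, over 1226 bp. Psmb9 and Tap1, of antigen processing, and Ppat and Paics, of purine synthesis, also had H3K4me3 alone.

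Among divergent pairs H3K4me3 was longest at Ddx5 (an RNA helicase) and Cep95, with 2659 bp, followed by Mrpl40 and Hira (a histone H3.3 chaperone) with 2220 bp, Utp18 (ribosome biogenesis) and Mbtd1 with 2202 bp, and Cdc40 (a splicing factor) and Wasf1 with 2189 bp. RAD21 was longest at Cdc123 (a factor for assembly of eIF2) and Nudt5, with 710 bp and a CTCF peak of 284 bp inside it. Aimp1, of the tRNA synthetase complex, and Tbck came next with 623 bp and no CTCF, then Lacc1 and Ccdc122 with 586 bp and Zswim7 (homologous recombination) and Ttc19 (complex III assembly) with 562 bp. CTCF was longest at Chmp1a (an ESCRT-III protein) and Spata33, with 622 bp. It measured 600 bp at Fhod1 and Slc9a5, 500 bp at Cmc2 and Atmin, and 465 bp at Dtl (a ubiquitin ligase receptor) and Ints7 (an Integrator subunit). Of these CTCF-rich pairs all 4 also had RAD21, with peaks of 71 to 548 bp.

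Of the divergent pairs without a peak, the leading 3 by name were Acp4 and Gm15517, Alyref (an mRNA export factor) and Anapc11 (the RING subunit of the anaphase-promoting complex), and Aspa and Spata22. Their gaps were 50, 21 and -317 bp. Alyref and Anapc11 are genes used by dividing cells in general, and a missed call and a true lack of H3K4me3 cannot be told apart with 1 library.

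Tandem and convergent pairs had their own extremes. At tandem pairs H3K4me3 was longest at Prr12 and Prrg2 (2966 bp) and at Zc3h10 and Rpl41 (2223 bp), and CTCF at Setd1a and Hsd3b7 (555 bp). Sympk, of mRNA polyadenylation, and Rsph6a, of sperm radial spokes, held a CTCF peak of 488 bp and a RAD21 peak of 111 bp with no H3K4me3. At convergent pairs the longest CTCF and RAD21 peaks, 423 and 482 bp, lay together between Duoxa2 and Duoxa1, maturation factors of the dual oxidases. Naxd and Cars2 had a RAD21 peak of 458 bp and no CTCF. Cers1 and Gdf1 share a locus, so their pairs with Upf1 report the same CTCF peak of 291 bp. The longest H3K4me3 peak of a convergent pair, 1856 bp, reached into the window of Smim27 and Ndufb6 from one side.

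At the limit of 1 kb the members just inside were Nfkbiz and Nxpe3 (998 bp), Gm30191 and Grrp1 (999 bp) and Pcgf2 and Psmb3 (999 bp). Nfkbiz and Nxpe3 held H3K4me3 and RAD21, Gm30191 and Grrp1 CTCF and RAD21, and Pcgf2 and Psmb3 2 H3K4me3 peaks. Just outside lay Pigz and 0610012G03Rik, Cnot3 and Leng1 (a gap of -1003 bp) and Myo1h and Kctd10 (-1005 bp), all convergent and without a peak.

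The promoter sequences were compared because divergent pairs share the bases between their starts. RefSeq promoters were matched to 1352 of 1744 genes of divergent pairs, 321 of 491 downstream genes of tandem pairs and 10740 of 13860 unpaired starts, counting those whose listed start lies within 100 bp of the annotated end. Divergent starts were richer in CpG: the median ratio of observed to expected CpG was 0.849, against 0.636 at tandem and 0.473 at unpaired starts, and the ratio passed 0.6 in 87.0%, 54.8% and 42.2%. Among starts with H3K4me3 the medians were 0.859 at divergent and 0.770 at unpaired starts, a smaller difference than over all starts.

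The same 7 short motifs were searched on both strands of every listed promoter, and none contains another. The TATA box, which positions the transcription machinery, was searched as TATAAA and was present in 15.2% of all 12679 listed promoters. The box of the factor NF-Y was searched as CCAAT and was present in 40.7%. The GC box, bound by Sp1 and its relatives, was searched as GGGCGG and was present in 45.6%. For NRF1, an activator of genes of the mitochondria, the letters were GCGCNTGCG, present in 9.57%. For the large family of ETS factors the letters were CCGGAAG, present in 12.4%. For the zinc finger protein YY1 they were AAGATGGCG, present in 1.97%. The core of the CTCF motif was searched as AGGNGGCGC and was present in 4.16%. Divergent starts held the TATA box in 5.33%, against 16.8% of unpaired starts. The GC box was present in 66.1% of divergent and 42.3% of unpaired starts, and the ETS letters in 28.4% of divergent and 10.0% of unpaired starts. The NRF1 letters were present in 20.8% of divergent and 8.07% of unpaired starts, and the YY1 letters in 5.10% and 1.58%. The NF-Y box was about as frequent in both, at 42.2% of divergent and 40.4% of unpaired starts. Divergent starts thus had fewer TATA box and more GC box, ETS, NRF1 and YY1 letters. A match is a run of letters anywhere in the promoter, whatever its distance from the start, and not a bound site.

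**Figure D5:**
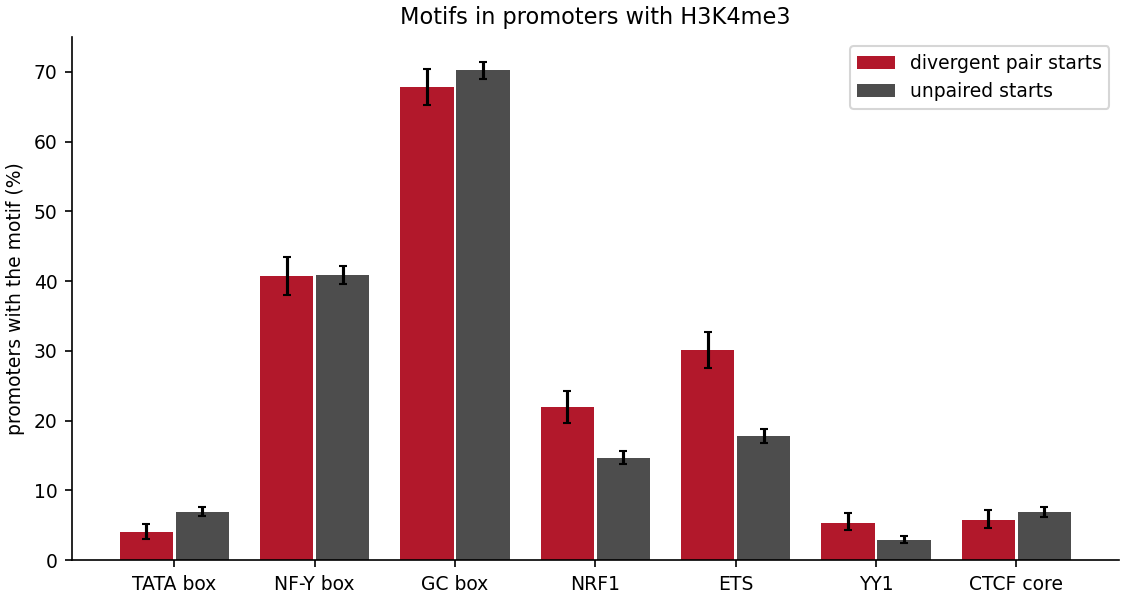
Share of promoters with H3K4me3 that hold each motif on either strand, in percent, for starts of divergent pairs (red) and unpaired starts (grey), with Wilson 95% intervals. ETS (30.1% against 17.8%) and NRF1 (21.9% against 14.7%) stand higher at divergent starts, and the NF-Y box does not differ (40.7% and 40.9%).

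Restricting to starts with H3K4me3 removed part of these differences. The GC box was then present in 67.8% of divergent and 70.2% of unpaired starts, and the CTCF core in 5.69% and 6.88%. The TATA box was present in 4.01% of divergent and 6.95% of unpaired starts, a smaller difference than over all starts. ETS stayed higher at divergent starts, at 30.1%, against 17.8%, as did NRF1 at 21.9%, against 14.7%, and YY1 at 5.37%, against 2.94%. The promoters of a divergent pair often overlap, and each was counted for its own gene; taking the right-hand gene of each pair alone gave 31.5% for ETS, 21.2% for NRF1 and 6.11% for YY1 over 622 marked pairs. ETS, NRF1 and YY1 letters were therefore more frequent at divergent starts also among marked promoters, and the GC and NF-Y boxes were not.

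Peaks were also counted over promoters with and without each motif. A CTCF peak lay over 34 of 72 divergent promoters with the CTCF core (47.2%), against 10.9% of those without it. At unpaired starts the shares were 46.9% with and 8.10% without the core. RAD21 peaks lay over 34 of 69 divergent promoters with the YY1 letters (49.3%, interval 37.8 to 60.8), against 34.8% of those without, and over 34.7% of unpaired promoters with the YY1 letters, against 18.2% without. For ETS the RAD21 shares were 41.1% with and 33.3% without the letters at divergent starts, and 36.9% with and 16.5% without at unpaired starts. At divergent starts RAD21 was about as frequent with the GC box (35.8%) as without it (34.9%). For the NRF1 letters the divergent shares were 38.1% with and 34.8% without, and for the CTCF core 47.2% and 34.8%. At unpaired starts RAD21 was higher with the GC box (28.5% against 11.2%), the NRF1 letters (32.5% against 17.3%) and the CTCF core (43.4% against 17.5%). It was not higher there with the TATA or NF-Y box. H3K4me3 at unpaired starts differed likewise, at 82.1% with and 38.5% without ETS letters, and at 90.6% and 42.1% for YY1. The RAD21 shares were not restricted to promoters with H3K4me3, so a link to a motif apart from H3K4me3 was not tested. These shares are descriptions, and promoters of a pair share bases and peaks.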

How the data were processed

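Chromatin of Bruce-4 cells was profiled by ChIP-exo in 4 libraries. Per the submitters' processing notes the build was mm10 and the tools included MACS2, bedtools 2.30.0, Picard 2.27.4 and Bowtie2 2.4.5. Not given in the sources used here are the step each served, the calling threshold, any control library and the depth. What the authors deposited is 3 lists of peaks with chromosome, start and end, so position is the only quantity, an other unit with no score or count. On the autosomes they held 21006 H3K4me3 peaks (median 683 bp), 50546 CTCF peaks (104 bp) and 74004 RAD21 peaks (141 bp). A list of the first CTCF library alone was not analysed here.

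Gene ends were the outermost ends in a RefSeq table of GRCm38.p6, and strand came from its promoter table. An outermost end can lie away from the start in use: both ends lay within 100 bp of a listed start in 533 of 877 divergent pairs (60.8%), as did 77.5% of unpaired starts. A peak counted from 1 bp of overlap. Of the intervals, 64 share an end with another. The scripts ran under pandas 2.3.3 and numpy 2.4.6 (Python 3.11.15), with matplotlib 3.10.9 for plots. The code was tested on simulated data: 617 of 617 planted gaps were found, the overlaps of 2938 windows equalled those of bedtools 2.31.1 in each list, and 94.5% of nominal 95% intervals held a planted difference. That simulation of intervals drew windows independently, so it cannot show how they perform where windows depend on each other. Windows on a chromosome are not independent, so intervals are too narrow for variation between cultures. Members, gene lists, motifs and the rule for naming pairs (textbook pairs, the 4 longest peaks of each list per strand class, the alphabetically leading 3 without peaks, the 3 smallest gaps and those at the limit) were chosen with earlier results of these data known. No comparison between treatments exists in the series. Alternatives varied the gap limit, window, overlap rule, peaks kept, unpaired set and chromosomes. The values of some textbook pairs are not reported here.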

Additional observations from a re-analysis of the deposited data

How the results depend on the processing

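Of the alternatives tried, the following moved a difference (paired minus unpaired, in percentage points) outside its reported interval, and none turned the sign of a difference whose reported interval excluded 0. The cause was not tested. For all pairs against unpaired ends, H3K4me3 was 28.0 points with a gap limit of 500 bp and 14.3 with 2 kb, 19.9 with 250 bp either side, 18.3 with the peak midpoint inside, 18.1 with at least 50% of the peak inside, 19.9 with peaks resized to 200 bp, and 25.7 against ends without a lncRNA end near. CTCF was 4.76 points at 2 kb, 4.33 and 8.31 with 250 and 1000 bp either side, 3.76 with peaks above the median length, 5.15 without the shortest calls, 8.82 in the rule's wider window and 8.72 with same-side ends also paired. RAD21 was 12.6 points at 500 bp and 6.38 at 2 kb, 8.75 and 12.2 with 250 and 1000 bp either side, 6.47 with peaks above the median length, 13.2 in the rule's window and 12.4 with same-side ends. For divergent pairs, peaks above the median length gave 44.9 (H3K4me3), 3.53 (CTCF) and 11.7 points (RAD21); ends at listed starts gave 24.0 for RAD21; starts with a divergent lncRNA gave 11.3, 0.668 and 8.66. The last 2 settings, the window about the downstream start and all settings of RAD21 in H3K4me3-marked windows were chosen after seeing the data. For tandem pairs against unpaired starts, H3K4me3 was -12.2 points with peaks resized to 200 bp. Against unpaired 3′ ends it was 34.2 with longer peaks and 28.1 resized, with 11.6 for CTCF and 13.1 for RAD21 with longer peaks. For convergent pairs H3K4me3 was 3.81 with 1000 bp either side and 0.301 resized. Within the reported intervals, the sign also turned for H3K4me3 at tandem pairs against unpaired starts (-1.32 with peaks above the median length) and for RAD21 at convergent pairs (-0.254 at a gap limit of 500 bp). The interval came to include 0 for CTCF at convergent pairs (1.06 at a gap limit of 500 bp). It came to exclude 0 for RAD21 at convergent pairs (3.08 with 1000 bp either side, 1.3 with peaks above the median length). The same held for RAD21 at tandem pairs against unpaired starts (4.3 with 1000 bp either side).

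RAD21 in marked windows without CTCF stayed between 6.14 and 13.8 points over 10 settings, each with an interval above 0; with CTCF it stayed between -10.9 and -4.06, and the interval reached 0 in 5 of the 10. Whatever CTCF, it stayed between 3.17 and 8.76, and the interval reached 0 with peaks above the median length. Peak lists without scores allow no ranking by strength. No paired analysis was possible because each antibody has 1 list and the groups compared are sets of windows in the same list.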
